A study of Mus musculus with 6 samples.

Results

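The gene group described here is a list of 34 genes for antioxidant defence, glutathione and thioredoxin, and the handling of iron and heme. Members were listed by gene symbol, with earlier results of these data known. All 34 were among the 54532 genes of the count table, and all 34 passed the filter on low counts that left 13175 genes tested. They were measured by RNA sequencing of mouse bone-marrow-derived macrophages, which are phagocytes cultured from marrow. The cells had been given monosodium urate (MSU), the crystal of gout. There were 3 libraries labelled Tet2 knockout, MSU treated, and 3 libraries labelled wild-type, MSU treated. TET2, the product of the gene, converts 5-methylcytosine in DNA to its oxidised forms. All 6 libraries share the MSU treatment, so the comparison is between genotype labels within treated cells. The allele, mouse strain and age, MSU dose and exposure time are not given in the sources used here.

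As background, NRF2 (encoded by Nfe2l2) is the transcription factor that switches on antioxidant genes. KEAP1 holds it in the cytoplasm and hands it to a ubiquitin ligase, and BACH1 competes with it at the same DNA sites until heme releases BACH1. NRF2 targets make glutathione, recharge thioredoxin and glutathione with electrons from NADPH, and break down heme. Macrophages also take up, store and export iron. Iron regulatory proteins bind hairpins in the mRNAs of ferritin and the transferrin receptor, and so block ferritin translation and protect receptor mRNA when iron is scarce.

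Total counts ran from 11997104 to 14481843 per library. Levels are in CPM, counts scaled for depth and by TMM, and averages are mean ± SD over 3 libraries; log2 fold changes put the knockout label over the wild-type label. A gene was called when its edgeR quasi-likelihood p, adjusted over all 13175 genes, was under 0.05. Whether replicate libraries stem from different animals or cultures is not stated, so the p-values cover the spread among these 6 libraries, possibly only technical. Tet2 itself stood at 33.7 ± 0.799 CPM in knockout-labelled libraries, against 29.3 ± 1.41 CPM in wild-type-labelled ones (n = 3 each; log2 fold change 0.20; edgeR adjusted p = 0.0159). The target gene was not lower, and directions below follow the labels. That call was lost with DESeq2 (DESeq2 adjusted p = 0.0691) and with the assumed spread of 0.1 described below, and did not survive leaving out knockout replicate 2 (edgeR adjusted p = 0.0556) or wild-type replicate 2 (0.0784), and all alternatives spanned 0.0137 to 0.3495. A count over the whole gene cannot show a partial deletion. Mitochondrially encoded genes took 0.349% to 0.366% of counts in knockout-labelled libraries, against 0.240% to 0.275% in wild-type-labelled ones. All 9 macrophage markers were tested, from 55.1 CPM for Itgam to 1722 CPM for Lyz2 in knockout-labelled libraries, against 55.8 CPM and 2385 CPM for the same genes in wild-type-labelled ones. Of these markers 5 were called higher (Mrc1 by 1.06, Adgre1 by 0.78, Mertk by 0.65, Csf1r by 0.55 and Fcgr1 by 0.20 on the log2 scale), 2 lower (Lyz2 at -0.47 and Cd68 at -0.09) and 2 were not called. Their sum before TMM scaling was 6207 to 6477 CPM in knockout-labelled libraries, against 5977 to 6371 CPM in wild-type-labelled ones. TMM factors were 0.985 to 0.987 in knockout-labelled libraries, against 1.01 to 1.02 in wild-type-labelled ones. Scaling by them raises the first sums and lowers the second, so this overlap does not carry over to the CPM used elsewhere. The part of these marker differences in the results below was not tested.

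Markers of connective tissue cells were abundant, and of 9 genes 5 were called lower, 1 higher (Col3a1) and 3 were not called. Their 9 genes summed to between 6979 and 7150 CPM in knockout-labelled libraries, against between 7690 and 8179 CPM in wild-type-labelled ones, before TMM scaling, and the part of such cells in the results below was not tested. In these bulk samples fewer cells of a type and less RNA per cell cannot be told apart. Of 9 erythroid markers, shown because red cell precursors are rich in heme and peroxide genes, 7 had 0 counts in every library and the others had at most 4. B cell, T cell and natural killer cell markers reached at most 13 counts in any library, and of 9 neutrophil markers 7 stayed under 10 counts. These last sums are also before TMM scaling, in libraries labelled knockout against wild-type. The neutrophil list, nearly all of it Csf3r, summed to 32.2 to 36.5 CPM against 25.4 to 29.5 CPM. The dendritic cell list summed to 4.90 to 6.44 CPM against 3.24 to 4.82 CPM.

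Among the 34 genes, 12 were called higher and 9 lower in knockout-labelled libraries, and 13 were not called. This is 61.8% called, where 40.9% of all tested genes were called, 21.6% higher and 19.2% lower. Calls are more frequent among well-expressed genes: of genes with a mean of at least 25 CPM 56.1% were called (30.2% higher and 25.8% lower), and of the 32 members at that level 65.6%. The 3 libraries of each label did not overlap for 19 members and for 47.8% of all tested genes. The median absolute log2 change was 0.14 over the members and 0.17 over all tested genes; at 25 CPM or more it was 0.14 over the members and 0.13 over all genes. Nfe2l2 and 7 of 10 listed NRF2 targets were lower, Keap1 and Bach1 were higher, and Hmox1, Tfrc and Ncoa4 had the largest called rises. When every gene was given an assumed biological coefficient of variation of 0.1, in place of the fitted 2.63%, the calls fell to 3 higher (Hmox1, Tfrc and Ncoa4) and 2 lower (Gclc and Gclm), against 9.28% of all tested genes called higher, 5.03% lower and 14.3% in all.

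**Figure D1:**
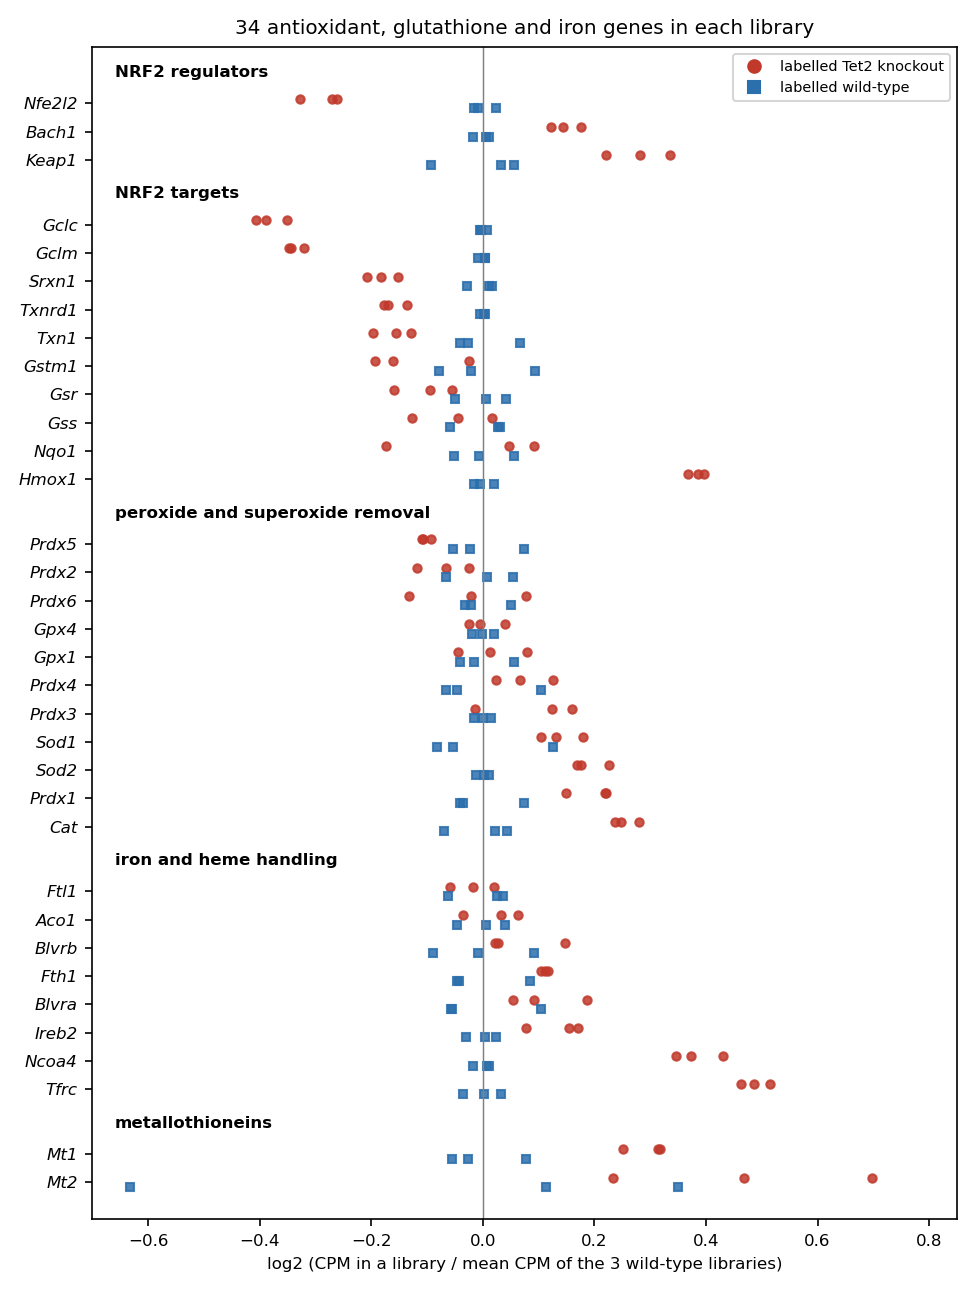
Each point is 1 library, placed on the x axis by the log2 ratio of its CPM to the mean CPM of the 3 wild-type libraries; circles are libraries labelled Tet2 knockout and squares those labelled wild-type, and genes run down the page by role. Circles and squares do not overlap for 19 of the 34 genes, and the same holds for 47.8% of all tested genes. The 7 NRF2 targets called lower lie to the left while Hmox1, Ncoa4 and Tfrc lie to the right.

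The mRNAs of all 3 NRF2 regulators were called between the labels. Of all tested genes 40.9% were called, of those at 25 CPM or more 56.1%, and 47.8% of all tested genes had groups that did not overlap. Nfe2l2 (mm10 chr2:75675513-75704641, minus strand) had 230.0, 221 and 232 CPM in knockout-labelled libraries, against 282, 274 and 276 CPM in wild-type-labelled ones. Every library labelled knockout was below every library labelled wild-type. The log2 fold change was -0.29 (SE 0.03; edgeR adjusted p = 2.55e-14). Keap1 (chr9:21229730-21239361, minus strand), the inhibitor that marks NRF2 for destruction, had 94.1, 102 and 98.2 CPM in knockout-labelled libraries, against 82.6, 75.8 and 83.9 CPM in wild-type-labelled ones. The groups did not overlap, and the log2 fold change was 0.28 (SE 0.04; edgeR adjusted p = 1.002e-07). Bach1 (chr16:87698945-87733346, plus strand), the repressor at NRF2 sites, had 126, 123 and 121 CPM in knockout-labelled libraries, against 112, 109.8 and 112 CPM in wild-type-labelled ones. Its groups did not overlap either, with a smaller log2 fold change of 0.15 (SE 0.04; edgeR adjusted p = 0.00115).

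Set side by side per kilobase within a library, Keap1 mRNA was 0.331, 0.373 and 0.343 times Nfe2l2 mRNA in knockout-labelled libraries, against 0.237, 0.223 and 0.246 times in wild-type-labelled ones. The Bach1 to Nfe2l2 ratio was 0.335, 0.341 and 0.321 in knockout-labelled libraries, against 0.243, 0.246 and 0.2496 in wild-type-labelled ones. In both ratios all 3 libraries labelled knockout were above all 3 labelled wild-type. This order follows from the single genes, Nfe2l2 being lower and Keap1 and Bach1 higher without overlap, and is no further evidence. With the assumed spread of 0.1 none of the 3 regulators was called, and their adjusted p ranged over all 15 alternatives from 4.95e-22 to 0.0937 for Nfe2l2, from 1.48e-08 to 0.115 for Keap1 and from 0.00101 to 0.487 for Bach1.

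NRF2 binds with a small MAF protein at the antioxidant response element, whose core is written TGACNNNGC. The promoter windows of RefSeq (build GRCm38.p6, from 250 bases before to 50 bases after a gene's start) were searched for these letters on both strands. A match stood in 9 of the 30 members with an entry and in 14.0% of all 27025 genes of the table. Hmox1, Gclc, Gsr and Prdx6 had no entry. The matches of NRF2 and of the targets described next are printed 5′ to 3′ on the strand that reads the motif, with the motif in capitals and 10 bases to either side.
Nfe2l2, chr2:75704885-75704913, minus strand: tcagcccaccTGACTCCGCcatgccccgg
Gclm, chr3:122245413-122245441, minus strand: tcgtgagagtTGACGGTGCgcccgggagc
Txnrd1, chr10:82859104-82859132, minus strand: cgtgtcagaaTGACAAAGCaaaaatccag
Srxn1, chr2:152105542-152105570, minus strand: tgtctcactcTGACCTAGCtgcccactgc
Prdx1, chr4:116685456-116685484, minus strand: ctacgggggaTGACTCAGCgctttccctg
Positions are counted along the gene's own strand from the RefSeq start of each window as +1, which can differ from the gene ends printed here. The first base of the match on that strand is at -240 for Nfe2l2, -134 for Gclm, -92 for Txnrd1, 29 for Srxn1 and -133 for Prdx1. The Nfe2l2 motif reads on the gene strand. The others read on the opposite strand, so there this base is the last of the printed motif. The Txnrd1 window belongs to a RefSeq start inside the gene. The Prdx1 match also holds TGACTCA, the letters of an AP-1 site. The other members with a match were Sod1, Blvra, Ncoa4 and Mt2, and the Mt2 match holds TGACTCA too. The 9 genes include members that were lower, higher and not called, and a match is a description of the window and no evidence of binding.

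Of the 10 listed NRF2 targets, 7 were called lower, 1 was called higher and 2 were not called. Of all tested genes 19.2% were called lower and 21.6% higher, and of those at 25 CPM or more 25.8% and 30.2%. The median log2 change of the 10 was -0.14, and over all tested genes it was -0.0031. The steepest falls were in both subunits of glutamate-cysteine ligase, the enzyme that limits the rate of glutathione synthesis. Its catalytic subunit gene Gclc (chr9:77754535-77794485, plus strand) had 51.4, 49.4 and 50.02 CPM in knockout-labelled libraries, against 65.4, 65.8 and 65.3 CPM in wild-type-labelled ones. The modifier subunit gene Gclm (chr3:122245557-122270732, plus strand) had 112, 112 and 114 CPM in knockout-labelled libraries, against 143, 142 and 143 CPM in wild-type-labelled ones. For both genes the libraries of a group lay close together and the groups stood far apart. The log2 fold changes were -0.38 for Gclc (SE 0.05; edgeR adjusted p = 7.84e-10) and -0.34 for Gclm (SE 0.04; edgeR adjusted p = 2.76e-13). Both stayed called under all 15 alternatives, including the assumed spread of 0.1. Gss, which joins glycine on in the last step of the same synthesis, was not called, with 26.4, 27.9 and 29.1 CPM in knockout-labelled libraries, against 29.3, 27.6 and 29.4 CPM in wild-type-labelled ones.

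The thioredoxin arm had smaller changes. Txnrd1, thioredoxin reductase, had 629.7, 633 and 648 CPM in knockout-labelled libraries, against 713, 714 and 709.7 CPM in wild-type-labelled ones, a log2 fold change of -0.16 (edgeR adjusted p = 2.27e-08). Srxn1, sulfiredoxin, which rescues over-oxidised peroxiredoxins, had 262, 272 and 266 CPM in knockout-labelled libraries, against 306, 297 and 305 CPM in wild-type-labelled ones (log2 fold change -0.18; edgeR adjusted p = 1.03e-07). Txn1, thioredoxin, had 349.6, 339.8 and 356 CPM in knockout-labelled libraries, against 382, 407 and 378 CPM in wild-type-labelled ones (log2 fold change -0.16; edgeR adjusted p = 1.36e-06). In all 3 genes the groups did not overlap, and none was called with the assumed spread of 0.1.

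Gsr, glutathione reductase, and Gstm1, a glutathione transferase, were at the edge of the test. Gsr averaged 126 ± 4.59 CPM in knockout-labelled libraries, against 136 ± 4.36 CPM in wild-type-labelled ones (n = 3 each; log2 fold change -0.10; edgeR adjusted p = 0.0250). Gstm1 averaged 70.8 ± 4.41 CPM in knockout-labelled libraries, against 77.1 ± 4.76 CPM in wild-type-labelled ones (n = 3 each; log2 fold change -0.13; edgeR adjusted p = 0.0301), and its groups overlapped. The Gsr call did not survive leaving out knockout replicate 2 (edgeR adjusted p = 0.0530), knockout replicate 3 (0.176) or wild-type replicate 3 (0.145), and its adjusted p ranged from 0.00690 to 0.658 over all alternatives. That of Gstm1 did not survive leaving out knockout replicate 1 (edgeR adjusted p = 0.206), knockout replicate 3 (0.129) or wild-type replicate 1 (0.272), and its adjusted p spanned 0.00308 to 0.584. Gstm1 has close paralogs that can share reads, so its value is uncertain. Nqo1, the quinone reductase often read as a reporter of NRF2, was scarce at 8.45 ± 0.812 CPM in knockout-labelled libraries, against 8.49 ± 0.317 CPM in wild-type-labelled ones (n = 3 each), and its difference was smaller than the spread.

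Hmox1 went the other way. It encodes heme oxygenase 1, which splits heme into biliverdin, iron and carbon monoxide and is controlled by BACH1 as well as NRF2. Hmox1 (chr8:75093621-75100589, plus strand) had 1175, 1184 and 1161 CPM in knockout-labelled libraries, against 896, 911 and 889.8 CPM in wild-type-labelled ones. The lowest library labelled knockout was well above the highest labelled wild-type. The log2 fold change was 0.38 (SE 0.02; edgeR adjusted p = 4.61e-29), and the gene was called under all 15 alternatives. The other 9 of the 10 listed NRF2 targets had negative estimates, from -0.01 for Nqo1 to -0.38 for Gclc. The tally depends on which targets were listed. Prdx1, placed below with the peroxide genes, is also a known NRF2 target and was called higher. In the further list of NRF2 partners and NADPH-linked targets, 7 genes were called higher and 10 lower.

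**Figure D2:**
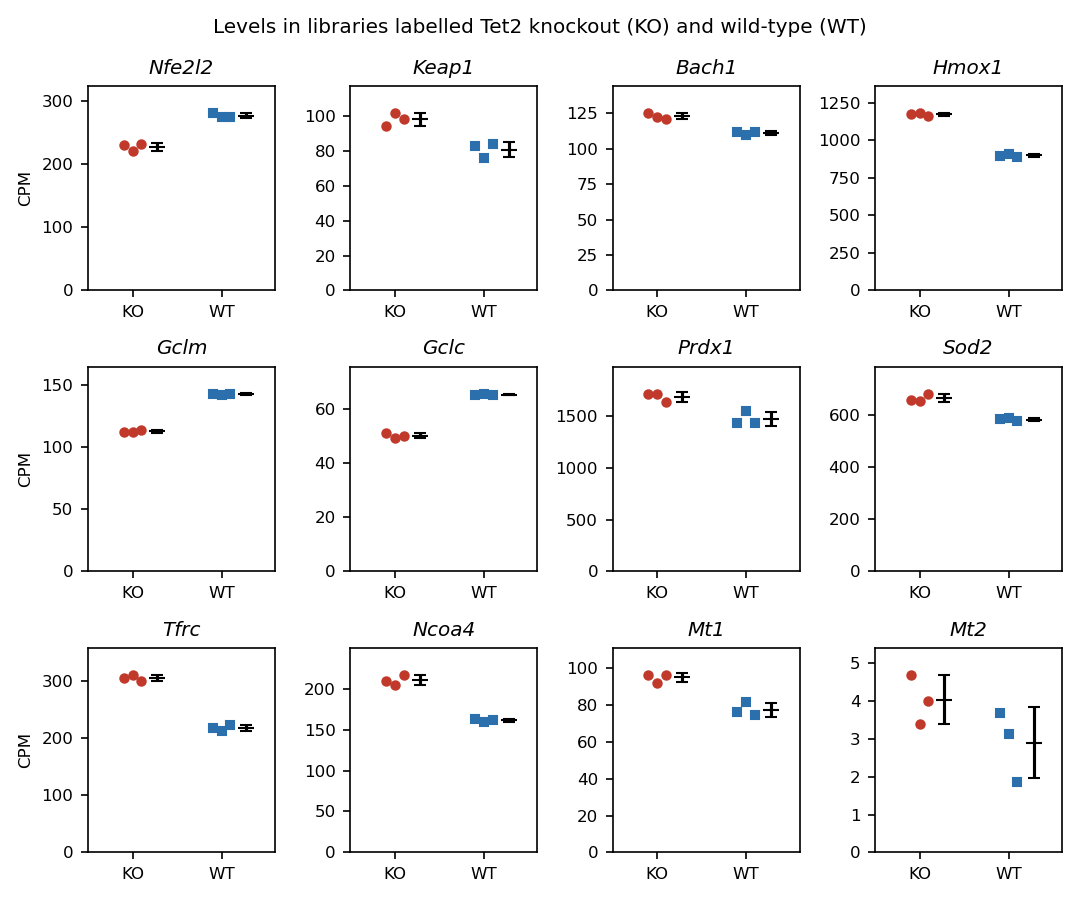
The y axis of each panel is CPM from 0; points are single libraries, labelled Tet2 knockout (KO, circles) and wild-type (WT, squares), and bars beside them are mean ± SD (n = 3). Nfe2l2, Gclm and Gclc are lower in all 3 KO libraries; Hmox1, Tfrc and Ncoa4 are higher in all 3, and only the Mt2 panel shows overlapping groups.

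Among enzymes that remove peroxide and superoxide, both cytosolic and mitochondrial superoxide dismutase, catalase and Prdx1 were higher. Of 11 genes, 4 were called higher, 1 lower and 6 were not called, with a median log2 change of 0.08. The share called was 45.5%, near the 40.9% of all tested genes and below the 56.1% of genes at 25 CPM or more. Prdx1 (chr4:116685544-116700822, plus strand), the most abundant peroxiredoxin here and also a known NRF2 target, had 1717, 1718 and 1635 CPM in knockout-labelled libraries, against 1433, 1552 and 1438 CPM in wild-type-labelled ones. Its groups did not overlap, wild-type replicate 2 being the nearest, and the log2 fold change was 0.20 (SE 0.02; edgeR adjusted p = 1.21e-10). Sod2 (chr17:13006846-13040063, plus strand), the manganese superoxide dismutase of mitochondria, had 656, 653 and 679.7 CPM in knockout-labelled libraries, against 582, 585 and 576 CPM in wild-type-labelled ones. The groups were clear of each other, with a log2 fold change of 0.19 (SE 0.03; edgeR adjusted p = 1.78e-10).

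Cat, catalase, had the largest estimate of the group, with 183, 179 and 177 CPM in knockout-labelled libraries, against 153, 155 and 143 CPM in wild-type-labelled ones (log2 fold change 0.26; edgeR adjusted p = 8.49e-10). Sod1, the cytosolic copper-zinc dismutase, had 113, 111 and 116.8 CPM in knockout-labelled libraries, against 97.4, 113 and 99.3 CPM in wild-type-labelled ones. Its groups overlapped at wild-type replicate 2, and the call (log2 fold change 0.14; edgeR adjusted p = 0.00401) was lost without wild-type replicate 1 (edgeR adjusted p = 0.0888; all alternatives spanned 1.54e-05 to 0.520). Prdx5, which sits in mitochondria, peroxisomes and cytosol, was the 1 gene called lower, with a log2 fold change of -0.10 (edgeR adjusted p = 0.00220). It averaged 341 ± 2.20 CPM in knockout-labelled libraries, against 366 ± 17.0 CPM in wild-type-labelled ones (n = 3 each).

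The glutathione peroxidases among the 34 genes were not called. Gpx1 averaged 355 ± 15.4 CPM in knockout-labelled libraries, against 351 ± 12.3 CPM in wild-type-labelled ones, and Gpx4, which protects membranes from lipid peroxides and so from ferroptosis, averaged 199 ± 4.64 and 199 ± 2.62 CPM in the same order of labels (n = 3 each). Prdx2, Prdx3, Prdx4 and Prdx6 were not called either, with log2 changes between -0.07 and 0.09. Of 15 alternatives, Prdx2 was called in 2, Prdx3 and Prdx4 in 1 each and Prdx6 in 0. With a library left out, edgeR adjusted p went down to 0.0225 for Prdx2, 0.0496 for Prdx3 and 0.0325 for Prdx4. With the assumed spread of 0.1 none of the 11 genes was called. Overlapping neighbours limit single values: Prdx5 overlaps Trmt112, Prdx2 overlaps Junb and Sod1 overlaps Scaf4 (891 to 988 counts, with 1364 to 1610 for Sod1), each on the opposite strand, and whether counting used the strand is not stated.

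Genes of iron and heme handling were higher or not called, and none was called lower. Of 8 genes 4 were called higher, with a median log2 change of 0.11. Among all tested genes 21.6% were called higher and 40.9% in either direction, and among those at 25 CPM or more 30.2% and 56.1%. Tfrc (chr16:32608920-32632794, plus strand), the transferrin receptor that brings iron in, had 306, 311 and 301 CPM in knockout-labelled libraries, against 218, 213 and 223 CPM in wild-type-labelled ones. It had the largest called change of the 34 genes, with no overlap between groups and a log2 fold change of 0.49 (SE 0.03; edgeR adjusted p = 2.85e-28). Ncoa4 (chr14:32159865-32179855, plus strand), the receptor that delivers ferritin to autophagy so that its iron is released, had 209, 205 and 217 CPM in knockout-labelled libraries, against 162, 159 and 162 CPM in wild-type-labelled ones. The groups were again far apart, with a log2 fold change of 0.38 (SE 0.03; edgeR adjusted p = 1.60e-18). Tfrc and Ncoa4 were called under all 15 alternatives.

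Ferritin, the iron store, was very abundant and changed little. Fth1, its heavy chain, had 12094, 12051 and 11987 CPM in knockout-labelled libraries, against 10806, 11829 and 10832 CPM in wild-type-labelled ones. On this scale the groups did not overlap, by a narrow margin at wild-type replicate 2, and the log2 fold change was 0.11 (SE 0.02; edgeR adjusted p = 0.000388). As a share of raw counts the groups did overlap: Fth1 took 1.19%, 1.19% and 1.18% in knockout-labelled libraries, against 1.10%, 1.19% and 1.10% in wild-type-labelled ones. Without wild-type replicate 2 the log2 fold change was 0.15. Ftl1, the light chain, had 4087, 4203 and 4314 CPM in knockout-labelled libraries, against 4074, 4361 and 4331 CPM in wild-type-labelled ones, a difference smaller than the spread (log2 fold change -0.02; edgeR adjusted p = 0.535). Ftl1 has pseudogene copies, of which Ftl1-ps1 drew 1158 to 1228 counts in knockout-labelled libraries, against 1182 to 1201 in wild-type-labelled ones, so its value is uncertain.

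Ireb2, which encodes iron regulatory protein 2, had a log2 fold change of 0.14 (edgeR adjusted p = 0.00649) and averaged 98.5 ± 3.38 CPM in knockout-labelled libraries, against 89.7 ± 1.70 CPM in wild-type-labelled ones (n = 3 each). It fell short when knockout replicate 2 was left out (edgeR adjusted p = 0.0512; all alternatives spanned 0.00455 to 0.538). Aco1, iron regulatory protein 1, averaged 97.6 ± 3.44 CPM in knockout-labelled libraries, against 96.2 ± 2.90 CPM in wild-type-labelled ones (n = 3 each) and was not called. Blvra and Blvrb, the biliverdin reductases that act after heme oxygenase, were not called (log2 fold changes 0.12 and 0.07). Both were called without wild-type replicate 2, Blvra with edgeR adjusted p = 0.0271 (all alternatives spanned 0.0271 to 0.634) and Blvrb with 0.0371 (spanning 0.0371 to 0.792).

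The hairpins that tie several of these mRNAs to cellular iron can be read in the transcripts. GENCODE M21 transcripts (GRCm38) were searched for a C, 5 bases, the loop CAGTGN and 5 bases able to pair with the first 5, and such a hairpin stood in 4 of the 34 members and in 1.34% of 21877 protein-coding genes. It lay in the 5′ UTR of Fth1 and Ftl1, where a bound iron regulatory protein blocks translation, and at 4 places in the 3′ UTR of Tfrc, where binding shields the mRNA from decay. The ferroportin gene Slc40a1, no member, is shown for its 5′ UTR hairpin. Each site is printed 5′ to 3′ on the transcript strand, 27 bases long, with the loop in capitals.
Fth1, chr19:9982733-9982759, plus strand: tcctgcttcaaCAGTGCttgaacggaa
Ftl1, chr7:45459780-45459806, minus strand: tcttgcttcaaCAGTGTttgaacggaa
Slc40a1, chr1:45925466-45925492, minus strand: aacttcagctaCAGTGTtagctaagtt
Tfrc site 1, chr16:32631220-32631246, plus strand: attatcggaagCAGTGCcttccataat
Tfrc site 2, chr16:32631599-32631625, plus strand: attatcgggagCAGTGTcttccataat
Tfrc site 3, chr16:32631664-32631690, plus strand: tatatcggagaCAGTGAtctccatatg
Tfrc site 4, chr16:32631711-32631737, plus strand: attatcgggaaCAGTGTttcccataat
The remaining match was in the coding part of Keap1. Of these 4 genes with a hairpin in a UTR, Tfrc and Slc40a1 had the larger mRNA changes, Fth1 a small one, and Ftl1 was not called. Protein was not measured, so the translational side of this control cannot be read here.

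Metallothioneins, small cysteine-rich proteins that bind zinc and copper, had positive estimates in both members. Mt1 (chr8:94179082-94180327, plus strand) had 96.5, 92.1 and 96.3 CPM in knockout-labelled libraries, against 76.0, 81.7 and 74.4 CPM in wild-type-labelled ones, with no overlap and a log2 fold change of 0.30 (SE 0.04; edgeR adjusted p = 1.61e-08). Mt2 (chr8:94172664-94173568, plus strand) was scarce, with 4.70, 3.41 and 4.01 CPM in knockout-labelled libraries, against 3.69, 3.14 and 1.87 CPM in wild-type-labelled ones. Its groups overlapped, and the log2 fold change of 0.48 (SE 0.21) was not called (edgeR adjusted p = 0.0590). The fold change was 0.24 without wild-type replicate 3 and 0.71 without wild-type replicate 1. It passed when knockout replicate 2 (edgeR adjusted p = 0.0331) or wild-type replicate 1 (0.0180) was left out, and its adjusted p spanned 0.0180 to 0.442 over all alternatives. Its raw counts lay between 26 and 67 per library, so this depth gives a wide error.

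Levels between genes were compared as CPM per kilobase of the gene length in the table. Fth1 stood at 13908 ± 62.3 in knockout-labelled libraries, against 12882 ± 673 in wild-type-labelled ones (n = 3 each), the second highest value of all tested genes under either label. Ftl1 followed with 3135 ± 84.8 and 3176 ± 118, Hmox1 with 670.2 ± 6.71 and 514 ± 6.36, and Prdx1 with 555 ± 15.8 and 485 ± 22.1 (knockout label first, n = 3 each). Between Hmox1 and Prdx1 the wild-type means differed by little more than their SDs, whereas in knockout-labelled libraries the gap was wider. Nqo1, Mt2 and Gss were the 3 lowest in the libraries labelled wild-type, at 5.47 ± 0.204, 4.93 ± 1.59 and 4.87 ± 0.1697 (n = 3 each). Mt2 did not differ from either neighbour beyond its spread, whereas Nqo1 was above Gss by more than their SDs.

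**Figure D3:**
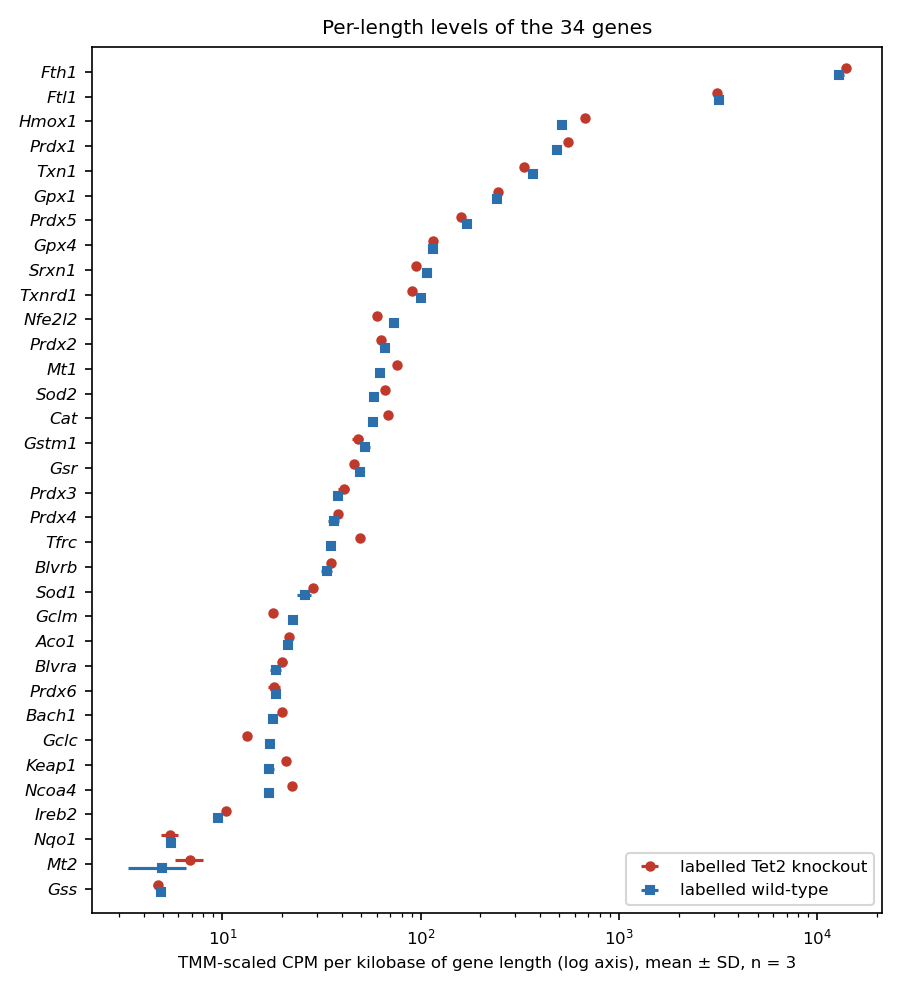
The x axis is TMM-scaled CPM per kilobase of gene length on a log scale, as mean ± SD over 3 libraries; for each gene the circle above is the libraries labelled Tet2 knockout and the square below those labelled wild-type. Genes are ordered by the wild-type level, from Fth1 at 12882 down to Gss at 4.87, and the differences between labels are small beside the differences between genes.

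Further genes of the same pathways were taken from lists written for this comparison. Among 23 NRF2 partners and NADPH-linked targets, 7 were called higher and 10 lower (73.9% called, with 40.9% of all tested genes and 56.1% of those at 25 CPM or more). Several partners of NRF2 and KEAP1 were called lower: Mafg, a small MAF partner of NRF2, fell by 0.10 on the log2 scale (edgeR adjusted p = 0.0184), and Maff and Mafk fell by 0.21 and 0.14. Maff was called in 9 and Mafk in 10 of 15 alternatives, neither with DESeq2 (DESeq2 adjusted p = 0.0895 and 0.0819; all alternatives spanned 0.0163 to 0.336 and 0.00466 to 0.518), and the groups of Mafk overlapped. The Mafg call was lost with DESeq2 (DESeq2 adjusted p = 0.0501) and without knockout replicate 1 (edgeR adjusted p = 0.0667), knockout replicate 2 (0.0506) and wild-type replicate 2 (0.0562), and its adjusted p spanned 0.00438 to 0.661 over all alternatives. Cul3 and Rbx1, the ubiquitin ligase subunits that work with KEAP1, fell by 0.18 and 0.16. Maff, Mafk, Cul3 and Rbx1 were named after their values had been seen.

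Sqstm1, which encodes p62, an autophagy adaptor that traps KEAP1 and is itself an NRF2 target, had 2307, 2327 and 2337 CPM in knockout-labelled libraries, against 3057, 3146 and 3079 CPM in wild-type-labelled ones (log2 fold change -0.41; edgeR adjusted p = 1.01e-34). Slc7a11, the cystine importer that feeds glutathione synthesis, had 91.0, 87.9 and 87.3 CPM in knockout-labelled libraries, against 111, 110.4 and 124 CPM in wild-type-labelled ones (log2 fold change -0.38; edgeR adjusted p = 5.71e-13). Both moved the way Gclc and Gclm did, with no overlap between groups. Several enzymes linked to NADPH were higher: G6pdx, the entry of the pentose phosphate pathway, rose by 0.44, the transketolase gene Tkt by 0.35 and the isocitrate dehydrogenase gene Idh1 by 0.42 on the log2 scale. Of 2 other pentose phosphate genes in the list, named after their values had been seen, Pgd rose by only 0.07 (edgeR adjusted p = 0.0253). The Pgd call held in 9 of 15 alternatives, not with DESeq2 (DESeq2 adjusted p = 0.0867). Taldo1 was not called (log2 fold change 0.04). Phgdh, the entry of serine synthesis, rose by 0.50. Malic enzyme, Me1, also a source of NADPH and named after its value had been seen, was lower (log2 fold change -0.27; edgeR adjusted p = 0.00180). Sqstm1, Slc7a11, G6pdx, Tkt, Idh1 and Phgdh were called under every alternative run.

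Among 39 tested genes of 40 further glutathione, thioredoxin and peroxide genes, 7 were called higher and 11 lower (46.2% called, with 40.9% of all tested genes and 56.1% of those at 25 CPM or more). The largest rises by the naming rule were in Mgst3, a microsomal glutathione transferase, with 30.4 ± 0.612 CPM in knockout-labelled libraries, against 14.7 ± 0.467 CPM in wild-type-labelled ones (n = 3 each; log2 fold change 1.05), and in Sesn1, a sestrin (0.86). Glrx, glutaredoxin, had 160.0, 160.0 and 160.1 CPM in knockout-labelled libraries, against 115, 114 and 116 CPM in wild-type-labelled ones (log2 fold change 0.47; edgeR adjusted p = 1.23e-21). Txnip, which binds and inhibits thioredoxin, fell by 0.81, and Msrb1, a selenoprotein that repairs oxidised methionine, by 0.32 on the log2 scale. Of the other glutathione peroxidases, named after their values had been seen, Gpx3 rose by 0.65 (edgeR adjusted p = 1.39e-11), and Gpx7 and Gpx8 fell by 0.24 and 0.32 (edgeR adjusted p = 0.0425 and 0.000511). The Gpx7 call held in 8 of 15 alternatives.

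Among 38 tested genes of 41 further iron, heme and metal genes, 10 were called higher and 11 lower (55.3% called, against the same 40.9% and 56.1%). Slc40a1, ferroportin, the exporter of cellular iron, had 94.5, 97.0 and 99.97 CPM in knockout-labelled libraries, against 63.9, 65.5 and 68.3 CPM in wild-type-labelled ones, with no overlap (log2 fold change 0.56; edgeR adjusted p = 3.08e-20). Cp, the ferroxidase ceruloplasmin, rose by 0.88, and Lrp1, a receptor that takes up heme bound to hemopexin among many ligands, by 0.64. Slc11a1, which pumps iron and other metals out of the phagosome, had 159, 156 and 167 CPM in knockout-labelled libraries, against 309.6, 308 and 324 CPM in wild-type-labelled ones, a log2 fold change of -0.97 (SE 0.03; edgeR adjusted p = 1.43e-50). Alas1, the entry of heme synthesis, rose by 0.23 on the log2 scale.

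**Figure D4:**
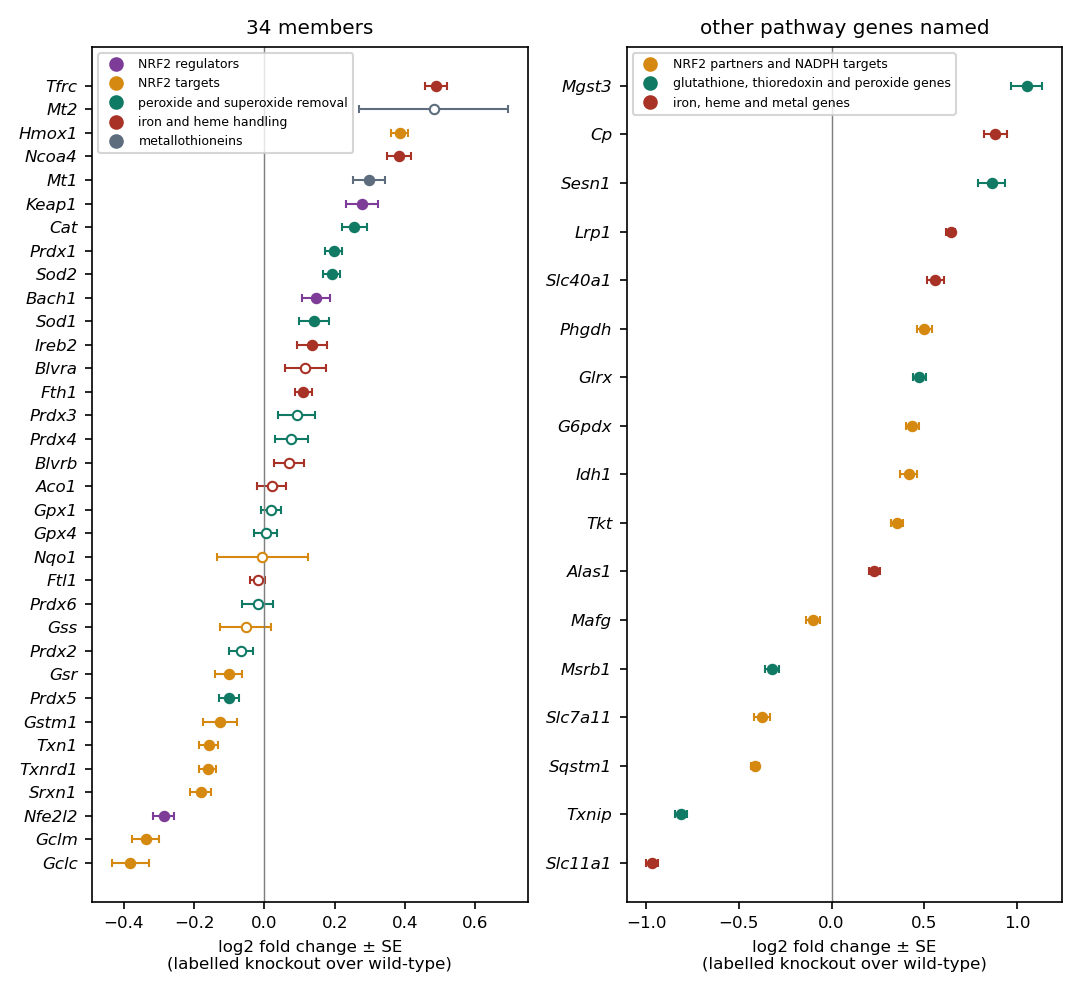
The x axis is the log2 fold change, libraries labelled Tet2 knockout over wild-type, with bars for the SE; filled points were called (edgeR adjusted p under 0.05), open points were not, and colours mark the role. The left panel runs from Tfrc at 0.49 to Gclc at -0.38 over the 34 genes, and the right panel from Mgst3 at 1.05 to Slc11a1 at -0.97 over the 17 other pathway genes named by rule.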

How the data were processed

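RNA of 6 MSU-treated macrophage libraries was extracted with an RNeasy Plus Mini kit and made into libraries with the NEBNext Ultra RNA kit, per the labels' protocols. The authors deposited raw counts, 1 whole number per gene and library. fastp, STAR and featureCounts on build mm10 are named, without versions, in the submitters' processing notes. Strand setting and treatment of reads shared by copies are not given in the sources used here, so overlapping and copied genes are uncertain. The gene length column was deposited by the authors beside the counts and is of no measured sample.

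Genes were kept by filterByExpr (minimum count 10), scaled by TMM and compared with the robust quasi-likelihood test of edgeR 4.0.16 in R 4.3.3, genotype being the only term (prior count 0.125, Benjamini-Hochberg adjustment over 13175 genes, threshold 0.05). With 3 libraries a group an exact permutation test has a smallest two-sided p of 0.1, and none was run. The fit was tested on simulated counts. Total counts of 11997104 to 14481843 per library gave every member at least 26 counts per library, and all members but Mt2 at least 106.

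The members, the other gene lists and the alternatives were chosen with earlier results of these data known. All members are given. Per-library values were set by rule for the 3 NRF2 regulators and, in each other role, for called members with a log2 change of at least 0.3 (or the 2 with the smallest p), and others were added after their values had been seen. Of each other list up to 5 called genes with the smallest p and an average log2 CPM of at least 1 were named, plus 5 fixed genes. As alternatives, each of the 6 libraries was left out, scaling was changed to RLE or upper-quartile, the test to DESeq2 1.42.0 or limma 3.58.1 with voom, and 2 other low-count filters, protein-coding genes alone, a replicate block and an assumed coefficient of variation of 0.1 were tried. Figures were drawn in Python 3.11.15 with matplotlib 3.10.9.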

Additional observations from a re-analysis of the deposited data

How the results depend on the processing

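With a biological coefficient of variation of 0.1 assumed, 1885 genes in all were called, and 3 members higher and 2 lower; of the other lists 8 NRF2 and NADPH genes, 7 glutathione, thioredoxin and peroxide genes and 7 iron, heme and metal genes were called. No other alternative moved any of these counts by more than 1.5 times. With each library left out in turn, members called higher numbered 12 to 15 (15 without wild-type replicate 2) and members called lower 7 to 9, and all genes called 4720 to 5151. DESeq2 lost the calls of Gsr and Gstm1. Only uncalled members changed sign. Gpx4 fell to -0.0004 on the log2 scale with RLE scaling and with DESeq2, -0.0163 with upper-quartile scaling and -0.0012 with no low-count filter, and ran from -0.0152 to 0.0174 with libraries left out. Gpx1 was -0.0022 with upper-quartile scaling and ran from -0.0150 to 0.0474 with libraries left out. In the same way Nqo1 ran from -0.0596 to 0.0723, Prdx6 from -0.0731 to 0.0311, Ftl1 from -0.0521 to 0.0011 and Aco1 from -0.0068 to 0.0480. The cause was not tested. The replicate numbers share only a label: same-numbered libraries deviated together with r of 0.004, -0.006 and -0.021 (across genes), so they were not treated as pairs. The replicate block gave 12 members higher and 9 lower, with 5259 genes called in all.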

Other observations

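Enzymes of heme synthesis in the list of iron, heme and metal genes, picked out after their values had been seen, did not all move in the same direction. Alas1, the entry of the pathway, rose by 0.23 on the log2 scale. Alad, the next enzyme, averaged 10.1 ± 0.961 CPM in knockout-labelled libraries, against 14.3 ± 0.763 CPM in wild-type-labelled ones (n = 3 each; log2 fold change -0.50; edgeR adjusted p = 8.02e-05). Urod and Cpox fell by 0.28 and 0.21, and Uros, Ppox and Fech had log2 changes between -0.02 and 0.10 and were not called.

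Bach2, a relative of Bach1, was near the limit of detection, with 0.561, 0.568 and 0.757 CPM in knockout-labelled libraries, against 1.71, 1.07 and 1.51 CPM in wild-type-labelled ones (log2 fold change -1.19, SE 0.38; edgeR adjusted p = 0.00727). The Ftl1 pseudogene Ftl2-ps drew 26, 45 and 52 counts in knockout-labelled libraries, against 23, 16 and 19 in wild-type-labelled ones (log2 fold change 1.03; edgeR adjusted p = 0.000959), while Ftl1-ps1 had a log2 fold change of -0.05 (edgeR adjusted p = 0.459).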
